A study of Mus musculus with 11 samples.

Results

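The genes described are those of the mitochondrial respiratory chain, the protein complexes that oxidize NADH and succinate and pass the electrons to oxygen, together with the ATP synthase subunits that the mitochondrial genome encodes. They were chosen by symbol: the protein-coding genes of the mitochondrial genome for complexes I, III, and IV and ATP synthase, and the nuclear genes named Nduf followed by 1 of the letters a, b, c, s, and v and a number (complex I), Sdha to Sdhd (complex II), Uqcr (complex III), and Cox4 to Cox8 (complex IV). The rule leaves out Ndufab1, Ndufa4l2, the Ndufaf assembly factors, and Cyc1, which were counted among other genes of the pathway. Ndufa4, whose protein is now placed in complex IV, is counted by its name. This took 78 of the 28284 genes listed. Of these, 13 are encoded by the mitochondrial genome, 63 are nuclear, and 2 are pseudogenes of Uqcrh, a complex III gene. The nuclear genes comprise 36 of complex I, 4 of complex II, 8 of complex III, and 15 of complex IV. The mitochondrial genes comprise 7 of complex I, 1 of complex III, 3 of complex IV, and 2 of ATP synthase.

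Complexes I, III, and IV are mosaics, in which a catalytic core made partly in the mitochondrion is surrounded by subunits imported from the cytosol, while complex II is wholly nuclear. The 2 sources of RNA are read differently: mitochondrial genes are transcribed together from both strands of a circular genome, and nuclear genes one by one. Several nuclear subunits of complex IV exist in more than one form, and Cox6a2, Cox7a1, and Cox8b are known as the forms of heart and skeletal muscle, whose paralogs Cox6a1, Cox7a2, and Cox8a are found in most tissues.

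Poly(A)-selected RNA was sequenced from 11 untreated cell lines of 7 OvTrpMyc mice, which were heterozygous for the Ovgp1-Trp53-R270H-Myc transgene on a C57BL/6 background. Per the study, genomic PCR of the cultured lines showed the mutant p53 allele without a wild-type band. The lines analysed here include no control without the transgene. The Ovgp1 promoter, which is active in the oviduct, drives a mutant p53 and MYC, and per the study's methods the F361 line no longer expressed the mutant p53. The right ovary (ROV) and left ovary (LOV), as the study names them, gave 7 of the lines: ROV and LOV of both F364 and F318, and ROV of F326, F319, and F339. The uterus of F319 and of F333 gave 1 line each. The remaining lines came from a peritoneal tumor of F361 and a splenic one of F326. The labels give no ages. Each line was 1 library, and nothing in the labels says that the lines of an organ are repeats of each other, so p-values measure the spread between lines. In such bulk RNA, fewer cells of a type and less RNA per cell cannot be told apart.

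Each library held between 13580525 and 27044598 counts on genes. At these depths 3 counts correspond to 0.111 to 0.221 CPM, where CPM is the count per 1000000 counts on genes. The libraries differed by their number, with ovary lines on both sides of the difference. Those numbered 1 to 7 in the labels (both F364 lines, both F326 lines, F361, F319 ROV, and F318 ROV) had 7.59% to 14.7% of their counts on 33 genes of the skeletal muscle fiber and 128 to 174 CPM on 4 Y-linked genes. Those numbered 8 to 11 (F318 LOV, F339 ROV, and the uterus lines) had 0.159% to 1.28% and 1.75 to 19.2 CPM, although all lines are labeled as ovarian cancer, which arises in females. The 10 epithelial and ovarian carcinoma markers summed to 9.43 to 241 CPM, with medians over lines from 0 to 4.57 CPM. Pax8, Epcam, Cdh1, Muc16, and Ovgp1 reached at most 3.04, 2.12, 3.68, 5.06, and 6.52 CPM in any line. Wt1, Krt18, Krt8, and Krt19 reached 72.7, 67.9, 52.7, and 21.7 CPM, all in F319 ROV, and Krt7 reached 40.5 CPM in the F333 uterus line. Both uterus lines carry numbers from 8 to 11, so the comparison of organs is also given within these 4 libraries. The boundary between numbers 7 and 8 was drawn after muscle and Y-linked RNA had been seen in these libraries. It is no group of the study, and the tests across it describe these libraries only.

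The mitochondrially encoded genes took between 0.538% and 4.0% of all counts. In libraries 1 to 7 the lowest, median, and highest shares were 1.15%, 2.63%, and 4.0%, in F318 ROV, F326 ROV, and F361. In libraries 8 to 11 the share was 0.67% in F339 ROV (95% Wilson interval 0.667% to 0.673%), 0.538% in F318 LOV (0.535% to 0.541%), 0.832% in the F319 uterus line (0.828% to 0.835%), and 1.02% in the F333 uterus line (1.02% to 1.03%). These intervals cover counting error only and are much narrower than the differences between lines. Every library numbered 8 to 11 thus lay below every library numbered 1 to 7, and the nearest neighbors across the boundary were the F333 uterus line and F318 ROV. The geometric mean of the share was 3.17-fold lower in libraries 8 to 11, with a log2 SD of 0.40 (n = 4) against 0.57 (n = 7) and an exact two-sided permutation p of 0.00606, the smallest that 4 against 7 lines allow (adjusted p = 0.0182 over 6 such tests). This test treats the lines as independent, although 4 mice gave a pair of lines. With 1 mean per mouse and set of libraries, the log2 difference was -1.6 (4 against 5 values, exact two-sided permutation p = 0.0159). F318 and F319 still have a value on each side there.

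The nuclear subunits, counted without the 3 muscle forms, took 0.429% to 2.32% of the counts. In libraries 1 to 7 the lowest, median, and highest shares were 1.03% in F318 ROV, 1.39% in F364 ROV, and 2.32% in F361. In libraries 8 to 11 the shares were 0.429% in F339 ROV, 0.43% in F318 LOV, 0.495% in the F319 uterus line, and 0.49% in the F333 uterus line. The 4 low libraries were nearly level with each other, and again none reached the lowest of the others. Their log2 summed CPM was lower by a factor of 3.26 (log2 SD 0.12, n = 4, against 0.42, n = 7, exact two-sided permutation p = 0.00606, adjusted p = 0.0182). With 1 mean per mouse and set of libraries, the log2 difference was -1.69 (4 against 5 values, exact two-sided permutation p = 0.0159). The F361 peritoneal tumor line had the highest CPM for 67 of the 78 members, including all 13 mitochondrial ones, and the highest share of muscle fiber counts. F318 LOV had the lowest CPM for 36 members, including 11 of the mitochondrial ones, and the lowest share of muscle fiber counts. The part of muscle RNA in these differences was not tested.

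**Figure D1:**
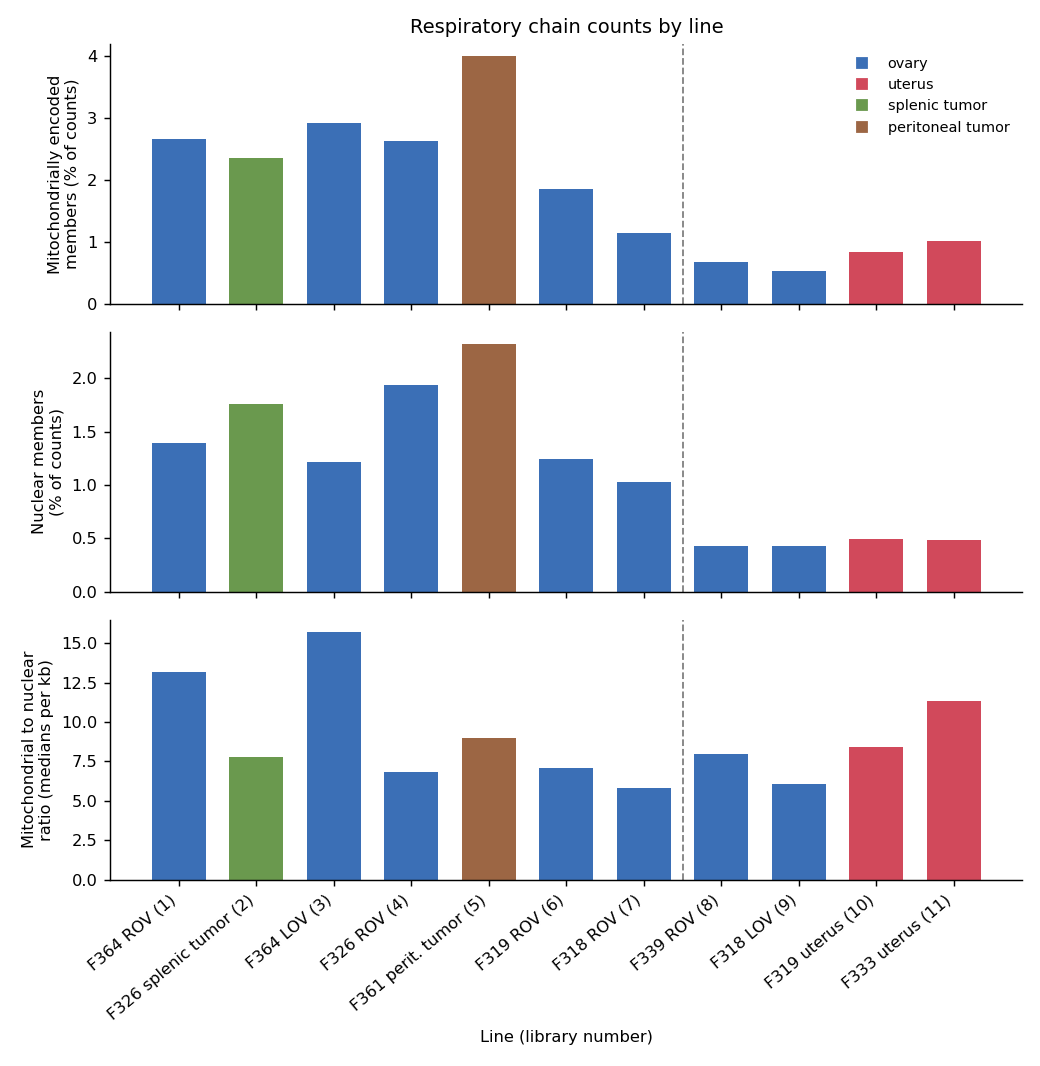
Percent of all counts on the 13 mitochondrially encoded members (top) and the 60 nuclear members without muscle forms (middle), and the ratio of the median CPM per kb of the former to that of the latter (bottom), 1 bar per line in the order of the library number, colored by organ. The dashed line separates libraries 1 to 7 from 8 to 11: both shares are lower on its right, with mitochondrial shares of at most 1.02%, while the ratios on both sides overlap.

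Since both classes were lower in the same libraries, their ratio was compared next, from the median CPM per kb of gene in each class. Per kb of exon, the median of all 13 mitochondrial members stood 5.80 to 15.7 times above the median nuclear member, and that of the 5 members outside a stretch copied on chromosome 1, described below, stood 10.4 to 27.6 times above it. The ratio was 13.2 in F364 ROV, 15.7 in F364 LOV, 7.81 in the F326 splenic tumor line, 6.82 in F326 ROV, 8.96 in F361, 7.08 in F319 ROV, and 5.80 in F318 ROV. It was 7.94 in F339 ROV, 6.09 in F318 LOV, 8.43 in the F319 uterus line, and 11.3 in the F333 uterus line. Over all 13 genes, both F364 lines were highest, F318 ROV and F318 LOV were lowest, and libraries 8 to 11 lay within the range of the others. Over the 5 genes, both F364 lines were again highest (23.0 and 27.6) and F318 ROV lowest (10.4), but F318 LOV (14.3) lay above both F326 lines (13.6 and 13.4). The log2 ratio differed by -0.09 between libraries 8 to 11 and 1 to 7 (exact two-sided permutation p = 0.764, adjusted p = 0.764), and this sign turned under several alternatives. This difference was smaller than the spread of the ratio within libraries 1 to 7 (log2 SD 0.53, n = 7).

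Lines of the same mouse put the boundary in view within an animal. F318 gave F318 ROV, numbered 7, and F318 LOV, numbered 9. F318 ROV had 2.14 times the mitochondrial share and 2.4 times the nuclear level of F318 LOV, and 71 of 75 members compared were lower in F318 LOV, as were 47% of all 15954 genes tested. F319 gave F319 ROV, numbered 6, and the F319 uterus line, numbered 10, with 2.22 times the mitochondrial share and 2.5 times the nuclear level in the former, and 72 of 76 members lower in the latter, beside 43% of all genes. The pairs of F364 and F326 lie within libraries 1 to 7. F364 LOV had 1.10 times the mitochondrial share of F364 ROV, with 53 of 75 members lower in F364 LOV, beside 51.4% of all genes. F326 ROV had 1.12 times the share of the F326 splenic tumor line, with 31 of 75 members lower in F326 ROV, beside 45.5% of all genes. The mitochondrial share and the nuclear level differed more within the pairs that cross the boundary than within the pairs that do not, in single libraries with no test.

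Among the mitochondrial genes, mt-Co1, the catalytic subunit of complex IV, had the highest level per kb (median over lines 3388 CPM per kb), and mt-Atp8, the smallest ATP synthase gene, the lowest (50.3 CPM per kb). These genes are cut from long shared transcripts, yet their levels differed by position. The complex I genes mt-Nd1, mt-Nd2, mt-Nd5, and mt-Nd6 and the cytochrome b gene mt-Cytb had medians of 912 to 3044 CPM per kb, and mt-Co1 and mt-Nd4 of 1286 to 3388 CPM per kb. The 6 genes between them on the mitochondrial genome (mt-Co2, mt-Atp8, mt-Atp6, mt-Co3, mt-Nd3, and mt-Nd4l) had 50.3 to 309 CPM per kb. By position, these 6 lie in a stretch that the reference genome also carries on chromosome 1 (GRCm38 chr1:24611535-24616197, minus strand), as 7 annotated genes. A copy is annotated for 5 of the 6 and for parts of mt-Co1 and mt-Nd4. None is annotated for mt-Atp8, and whether its sequence is present there was not tested. Gm28661 matched mt-Co2 at all 681 aligned bases, Gm10925 matched mt-Atp6 at 678 of 678, and Gm28438 matched mt-Nd3 at 344 of 345. Gm28661 itself had 0.683 to 0.792 times the count of mt-Co2 in each line, and the 7 copies together had 169 CPM in F318 LOV to 1624 CPM in F361. Reads from the copied sequence match both places, so the levels of those 5 genes are uncertain. How many such reads were dropped or went to the copy was not tested, nor was the effect of removing duplicate reads.

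**Figure D2:**
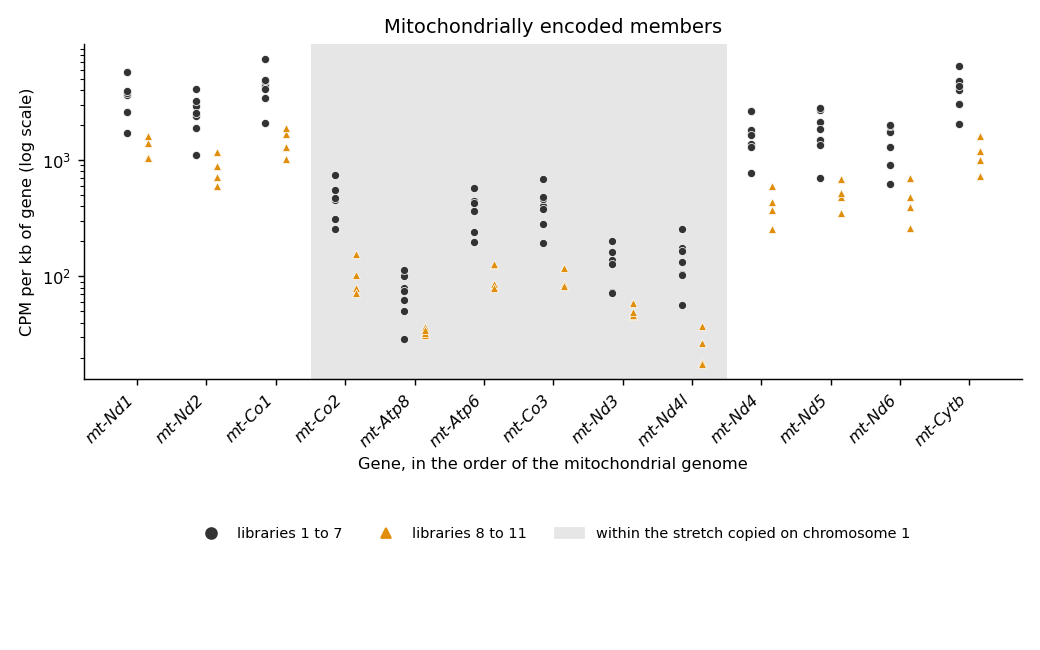
CPM per kb of gene on a log scale for the 13 mitochondrially encoded members in genome order, 1 point per line, with libraries 1 to 7 as circles and 8 to 11 as triangles. Gray marks the 6 members that lie by position within the stretch copied on chromosome 1, of which mt-Atp8 has no annotated copy, and whose medians of at most 309 CPM per kb lie below those of all members outside it, and for most genes the triangles lie below the circles.

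All 13 mitochondrial genes were lower in libraries 8 to 11 in edgeR's quasi-likelihood test (Benjamini-Hochberg adjusted p under 0.05), against a background of 29.9% of 15954 genes called lower. mt-Cytb, the core of complex III, had a lowest, median, and highest level of 2319, 4922, and 7425 CPM in libraries 1 to 7. In libraries 8 to 11 it had 1140.5, 842, 1371, and 1833 CPM, without overlap, for a log2 fold change of -2.27 ± 0.43 (SE, edgeR adjusted p = 0.000895). mt-Co1 ranged from 3214 to 11372 CPM against 1590.2 to 2896 CPM, also without overlap (-1.99 ± 0.42, adjusted p = 0.00187).

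The largest difference among them was that of mt-Nd4l, a membrane subunit of complex I within the copied stretch, with 16.8 to 75.5 CPM against 5.24 to 11.2 CPM and a log2 fold change of -2.89 ± 0.47. mt-Co2, which holds the copper site that receives electrons from cytochrome c, was at 176 to 509 CPM against 49.7 to 107 CPM (-2.60 ± 0.41). mt-Atp8 had the smallest, -1.52 ± 0.39, and its ranges of 5.88 to 23.3 and 6.35 to 7.51 CPM overlapped. The other 8 lay between -2.43 and -1.77, and of the 13 the ranges overlapped for mt-Nd2 and mt-Nd6 too. mt-Nd6, the only mitochondrial member on the other strand, had 322 to 1045 CPM against 134 to 366 CPM. No overlap, with the lower values in libraries 8 to 11, was found for 17.1% of all genes tested.

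Of the 59 nuclear genes tested without muscle forms, 55 were lower in libraries 8 to 11 and 1 was higher, where 28.6% of all genes were called higher. The 55 include Cox4i2, which passed the filter on low counts through libraries 1 to 7. So do the nuclear counts given below for the ovary lines alone and for the mouse as a block. The median log2 fold change of the 59 was -2.07, beside -2.24 for the mitochondrial members and 0.02 for all genes tested. Scaling by library totals in place of TMM raised the median of all genes by 0.37 and turned the calls from 4568 higher and 4769 lower into 6080 higher and 3734 lower. In the 7 ovary lines alone, 55 of 59 nuclear and 12 of 13 mitochondrial members were lower in libraries 8 and 9, where 22.1% of 16610 genes were called lower. The exception was mt-Atp8 (log2 fold change -1.46, adjusted p = 0.0714). With the mouse as a replicate block in edgeR, where only the pairs of F318 and F319 cross the boundary, 44 of 59 nuclear and 8 of 13 mitochondrial members were called lower and 0 higher, where 13.5% of all genes were called lower, and the medians were -1.50 and -1.35. The mitochondrial genes whose calls were lost were mt-Nd1, mt-Nd2, mt-Nd3, mt-Co1, and mt-Atp8, with adjusted p of 0.0503 to 0.553 from edgeR. The nuclear ones were Ndufs1, Ndufa7, Ndufa10, Ndufa12, Ndufb2, Ndufb4, Ndufc2, Sdhc, Uqcrc2, Cox6a1, Cox6c, and Cox7c, with adjusted p of 0.0503 to 0.322. Muscle fiber RNA, which set the boundary, moved with these calls, and the median fitted difference of 32 muscle fiber genes was -4.43, a description with no test. The 5 fat cell markers summed to 153 to 347 CPM in libraries 1 to 7 and to 2.49 to 38.2 CPM in libraries 8 to 11. Most of this was Fabp4, a fatty acid carrier, at 150.3 CPM or more in the former and 35.5 CPM or less in the latter. Of the other fat cell markers, Adipoq, Cfd, and Plin1 passed the filter on low counts through libraries 1 to 7, and Lep did not pass it. The 5 brown fat markers summed to 12.2 to 31.1 CPM against 0.742 to 3.65 CPM. Cidea had 1.71 to 4.3 CPM against 0 to 0.627 CPM, Dio2 1.4 to 4.85 against 0 to 1.15 CPM, and Ppara 5.55 to 22.9 against 0 to 1.76 CPM, while Elovl3 was highest in F318 LOV, at 0.655 CPM, and Ucp1, which defines brown fat, had at most 2 counts in any line. Their part was not tested.

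**Figure D3:**
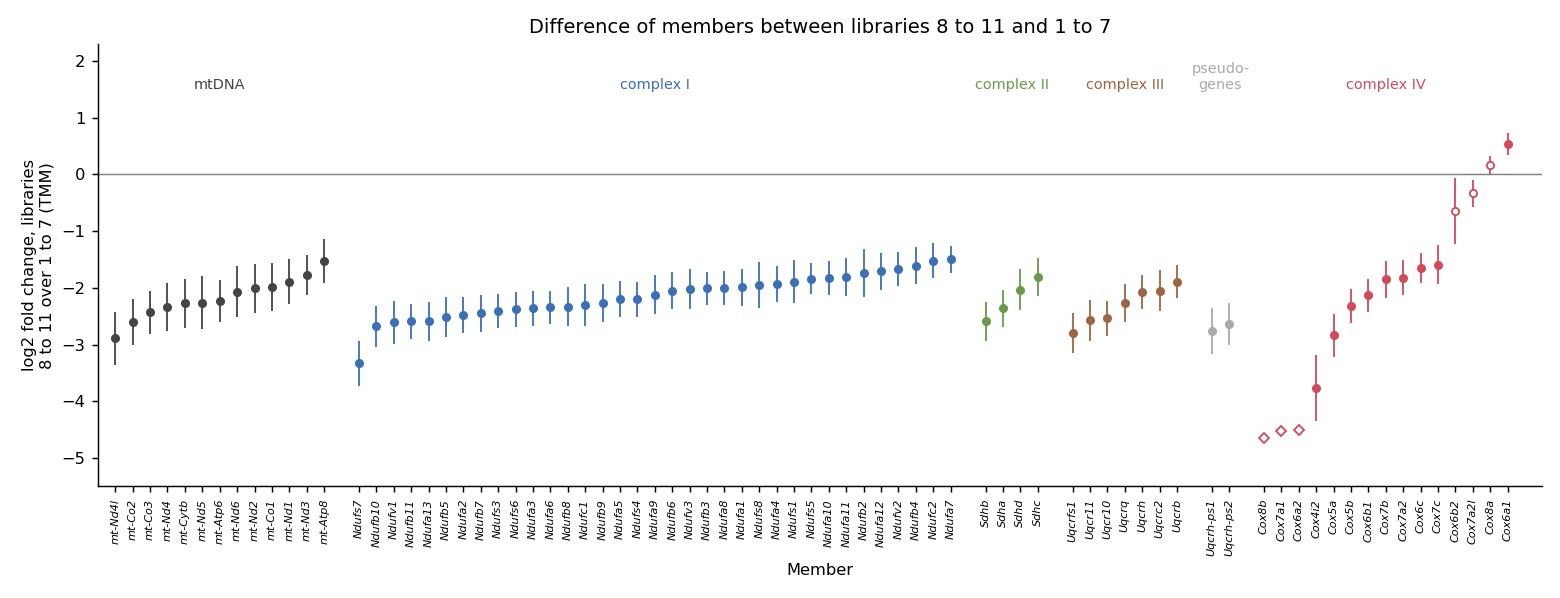
Log2 fold change of the members tested, without 1 that is not reported, between libraries 8 to 11 and libraries 1 to 7 from edgeR with TMM scaling, grouped by mitochondrial genome (mtDNA) or nuclear complex, with bars of 1 SE. Filled circles had an adjusted p under 0.05, open circles did not, and open diamonds are the muscle forms, given without a test. All members shown of mtDNA and complexes I to III lie at -1.5 or below, and complex IV spans -4.64 to 0.54.

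All 36 nuclear genes counted as complex I were lower, with log2 fold changes from -3.33 to -1.50 and a median of -2.16. Ndufs7, the subunit with the last iron-sulfur cluster before ubiquinone, showed the largest. It had 264, 436, and 758 CPM as the lowest, median, and highest of libraries 1 to 7, and 61.1, 65.8, 45.1, and 82.5 CPM in libraries 8 to 11. The sets were far apart, by -3.33 ± 0.40 on the log2 scale (SE, edgeR adjusted p = 8.07e-05).

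Other core subunits had smaller differences. Ndufv1, which binds NADH and FMN, had 383 to 869 CPM against 74.5 to 209 CPM (-2.61 ± 0.38, edgeR adjusted p = 0.000203). Ndufs1 and Ndufs8, which carry iron-sulfur clusters, differed less, by -1.89 ± 0.38 and -1.95 ± 0.41. None of these 3, nor Ndufs7, had overlapping ranges.

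Among the accessory subunits, Ndufb10 differed most (-2.68 ± 0.36), with 209.7 to 565 CPM against 59.4 to 83.4 CPM, and Ndufa7 least (-1.50 ± 0.24), with 172 to 371 CPM against 93.2 to 141 CPM. Per kb of exon, Ndufb9 had the highest median level of the nuclear genes of the complex (371 CPM per kb) and Ndufb2 the lowest (1.08 CPM per kb). Ndufb2 has annotated exons that overlap those of other genes, which counting by gene may leave out, and its CPM of 4.40 to 16.9 in libraries 1 to 7 met the 2.27 to 4.40 CPM of libraries 8 to 11. It was the only nuclear complex I gene whose ranges were not separate.

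Complex II links the citric acid cycle to the chain, and all 4 of its genes were lower in libraries 8 to 11 without overlap. Sdhb, the iron-sulfur subunit, had 345, 414, and 848 CPM as the lowest, median, and highest of libraries 1 to 7 and 102, 111, 123, and 117 CPM in libraries 8 to 11, a difference of -2.59 ± 0.34 (edgeR adjusted p = 0.000126). Sdha, the flavoprotein that oxidizes succinate, had 552 to 1269 CPM against 171 to 249.6 CPM (-2.36 ± 0.33). The membrane anchors Sdhd and Sdhc differed by -2.03 ± 0.36 and -1.81 ± 0.33. Sdha was the 1 member of the 78 that was highest in F326 ROV. Per kb of exon, the medians of the 4 genes were 67.6 to 163 CPM per kb, with Sdhc lowest and Sdhd highest.

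In complex III, 7 of 7 nuclear genes tested were lower. Uqcrfs1, the Rieske iron-sulfur protein, had 292, 442, and 787 CPM as the lowest, median, and highest of libraries 1 to 7 and 94.4, 74.2, 113, and 105 CPM in libraries 8 to 11, a difference of -2.80 ± 0.35 (edgeR adjusted p = 9.83e-05). Uqcr10, a small subunit with the highest median per kb of the nuclear genes of the complex (389 CPM per kb), differed by -2.54 ± 0.31, and the core protein Uqcrc2 by -2.05 ± 0.36. The other core protein, Uqcrc1, was listed at 0 in 6 of 11 libraries and had at most 6 counts in the others, so it did not pass the filter on low counts. Since Uqcrc2, its partner, had 2129 to 7988 counts, the value of Uqcrc1 is given as listed and not read as a level. Uqcrh-ps1 and Uqcrh-ps2, with 1.22 to 15.7 CPM, were lower as well (-2.76 ± 0.40 and -2.63 ± 0.37). Of the 75-base windows of Uqcrh-ps1, 7.22% also occur in Uqcrh, and none of those of Uqcrh-ps2.

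Complex IV varied most, with 8 of 12 nuclear genes without the muscle forms lower and 1 higher. Cox4i2, the lung and hypoxia form of subunit 4, had 3.04, 3.10, 3.42, 4.47, 4.71, 3.45, and 4.57 CPM in libraries 1 to 7 and 0.157, 0.96, 0.148, and 0.186 CPM in libraries 8 to 11, where 3 of 4 libraries held 4 counts each. All values were low and did not overlap. No gene is listed under the symbol Cox4i1, the other form of subunit 4, so its level is not known here. Cox4i2 passed the filter on low counts through libraries 1 to 7, so its call, 1 of the 8, is given as a description only. Cox5a, which faces the matrix, had 201 to 475 CPM against 35.6 to 78.7 CPM (-2.84 ± 0.38). Cox6b1, with the highest median level per kb among nuclear complex IV genes other than the muscle forms (434 CPM per kb), had 298 to 569 CPM against 104 to 140.1 CPM (-2.13 ± 0.29). Cox7b followed with -1.85 ± 0.33. Cox6b2, the testis form, stayed at 0.186 to 1.85 CPM with overlap (-0.64 ± 0.58, edgeR adjusted p = 0.362). Without the F319 uterus line the fit gave -1.59 (edgeR adjusted p = 0.0287), but Cox6b2 then passed the filter on low counts through libraries 1 to 7 only, so this value is a description. The testis markers Prm1 and Ldhc were at most at 0.269 CPM.

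Cox6a2 had the highest median level per kb of the nuclear complex IV genes (1025 CPM per kb). Cox6a2 (GRCm38 chr7:128205435-128206387, minus strand, inside the span of Itgad on the other strand) had 957, 1248, 697, 797, 933, 768, and 685 CPM in libraries 1 to 7 and 64.2, 22.3, 41.6, and 69.4 CPM in libraries 8 to 11. Cox8b had 332, 448, 234, 368, 463, 264, and 201 CPM against 17.4, 2.92, 11.9, and 35.4 CPM. Cox7a1 had 166, 184, 182, 323, 445, 122, and 63.2 CPM against 4.86, 2.36, 4.47, and 35.0 CPM. No muscle form overlapped between the sets, F318 LOV was lowest for each, and F333 uterus was highest of libraries 8 to 11 for each. Since the boundary was drawn by muscle RNA, these values are a description with no test. Their fitted log2 differences were -4.51 for Cox6a2, -4.52 for Cox7a1, and -4.64 for Cox8b, close to the median of -4.43 for the muscle fiber genes and further from 0 than those of the other members.

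The paralogs did not follow one direction. Cox6a1 was the one member called higher in libraries 8 to 11. It had 57.5, 69.2, and 104 CPM as the lowest, median, and highest of libraries 1 to 7 and 102, 131, 146, and 158 CPM in libraries 8 to 11. The ranges met only at F319 ROV and F339 ROV, with a difference of 0.54 ± 0.19 on the log2 scale (edgeR adjusted p = 0.0265), a call that was lost without F364 ROV (adjusted p = 0.0525), without the F319 uterus line (0.0514), without the F333 uterus line (0.0997), among the ovary lines alone (0.378), and with the mouse as a block (0.322). Cox8a had 57.1, 72.8, and 81.6 CPM in libraries 1 to 7 and 84.4, 94.0, 128, and 104 CPM in libraries 8 to 11, the one member whose values were all higher there, as for 26.1% of all genes. Its difference was 0.16 ± 0.17 with TMM (edgeR adjusted p = 0.412), 0.53 with library totals (adjusted p = 0.0166), and -0.08 in the ovary lines alone. Cox7a2 was called lower like most members, at 109.6 to 241 CPM against 46.8 to 74.9 CPM without overlap (-1.82 ± 0.31, edgeR adjusted p = 0.000544). Cox7a2l, another member of that family, had 95.2 to 209 CPM against 123 to 139 CPM, with -0.33 ± 0.24 under TMM (edgeR adjusted p = 0.252), 0.06 with library totals, and 0.10 with the mouse as a block.

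Per kb of exon, the muscle form was the larger part of 2 pairs in every library numbered 1 to 7. Cox6a2 was 88.4% to 95.7% of the sum of Cox6a2 and Cox6a1 in libraries 1 to 7, and 39.5%, 15%, 22.7%, and 31.2% in libraries 8 to 11. Cox8b was 82.3% to 93.3% of its pair with Cox8a, and 26.1%, 5.08%, 13.8%, and 36.9% in libraries 8 to 11. Cox7a1 was 48.5% to 76.5% of its pair with Cox7a2, and 12.5%, 6.38%, 14.4%, and 45.2% in libraries 8 to 11, the closest approach of the sets. F318 ROV had the lowest share of Cox7a1 and of Cox8b in libraries 1 to 7 and also their lowest share of muscle fiber counts, 7.59%. Between the lines of F318, Cox6a2 was 30.7 times higher in F318 ROV than in F318 LOV, Cox7a1 26.8 times, and Cox8b 68.9 times, whereas Cox6a1 was 1.78 times and Cox8a 1.26 times higher in F318 LOV. Cox7a2, the paralog of Cox7a1, was 1.94 times higher in F318 ROV.

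**Figure D4:**
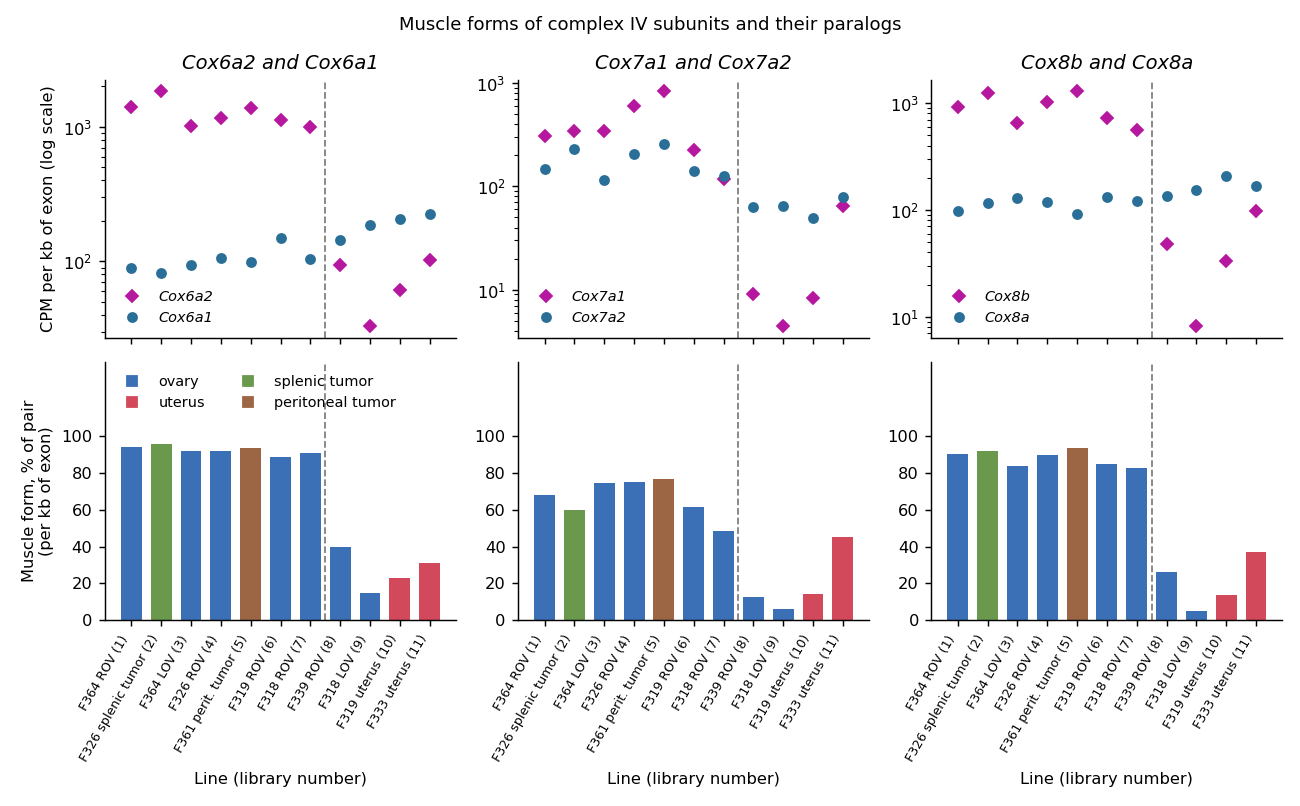
Top, CPM per kb of exon on a log scale for the muscle form (diamonds) and its paralog (circles) in each line by library number, and bottom, the muscle form as a percent of the pair. Left of the dashed line (libraries 1 to 7) Cox6a2 and Cox8b make up at least 88.4% and 82.3% of their pairs, and right of it at most 39.5% and 36.9%.

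The promoters of these genes are shown because the muscle form and its paralog differed in level within a pair. RefSeq (GRCm38.p6) sequences of the 250 bases before the start were held for Cox7a1, Cox7a2, Cox8b, Cox8a, and Cox6a1. Capitals mark matches on either strand to the E box (CANNTG), the ETS motif (CCGGAAG), the NRF1 motif, and the MEF2 motif. They are printed 5′ to 3′ on the strand of the gene.
Cox7a1 (chr7:30183921-30184170, plus strand): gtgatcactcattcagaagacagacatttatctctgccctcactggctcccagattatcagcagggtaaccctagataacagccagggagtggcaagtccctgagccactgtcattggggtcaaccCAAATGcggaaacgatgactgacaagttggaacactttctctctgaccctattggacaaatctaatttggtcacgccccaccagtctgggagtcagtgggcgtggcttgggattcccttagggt
Cox7a2 (chr9:79759854-79760103, minus strand): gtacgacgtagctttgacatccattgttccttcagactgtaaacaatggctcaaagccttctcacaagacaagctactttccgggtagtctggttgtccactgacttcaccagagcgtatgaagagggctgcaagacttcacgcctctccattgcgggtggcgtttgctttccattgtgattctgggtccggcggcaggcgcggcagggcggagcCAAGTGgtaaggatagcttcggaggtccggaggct
Cox8b (chr7:140900447-140900696, minus strand): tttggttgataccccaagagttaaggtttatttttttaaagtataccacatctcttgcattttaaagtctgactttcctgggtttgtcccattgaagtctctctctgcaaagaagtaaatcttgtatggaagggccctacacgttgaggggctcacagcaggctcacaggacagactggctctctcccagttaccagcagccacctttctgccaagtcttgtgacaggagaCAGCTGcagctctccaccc
Cox8a (chr19:7217617-7217866, minus strand): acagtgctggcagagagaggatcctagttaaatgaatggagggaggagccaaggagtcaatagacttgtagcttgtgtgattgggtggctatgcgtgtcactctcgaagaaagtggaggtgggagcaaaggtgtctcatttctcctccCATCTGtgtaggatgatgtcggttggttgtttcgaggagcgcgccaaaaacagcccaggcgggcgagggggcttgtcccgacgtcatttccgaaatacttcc
Cox6a1 (chr5:115348959-115349208, minus strand): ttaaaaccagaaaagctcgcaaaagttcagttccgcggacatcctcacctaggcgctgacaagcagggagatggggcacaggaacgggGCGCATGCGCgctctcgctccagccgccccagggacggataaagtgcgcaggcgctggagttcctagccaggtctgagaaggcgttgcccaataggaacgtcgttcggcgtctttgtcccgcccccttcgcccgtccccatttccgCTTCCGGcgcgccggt
The muscle forms Cox7a1 and Cox8b held 4 and 1 CpG dinucleotides, against 14 in Cox7a2, 11 in Cox8a, and 26 in Cox6a1, with a median of 6 over 32851 promoters. The GC content was 51.2% in Cox7a1 and 47.2% in Cox8b, beside 54.8% in Cox7a2, 52.8% in Cox8a, and 62.8% in Cox6a1. Cox6a1 held 1 NRF1 match, the capitals 162 bases before its start, which 0.782% of all promoters hold, and 1 ETS match at 16 bases, which 6.91% hold. An E box, found in 66.2% of all promoters, occurred once in each of the other 4. The MEF2 motif, found in 2.92%, had no match in these windows. Over the 52 promoters of 50 members that could be matched, 15.4% held the ETS motif, 3.85% the NRF1 motif, and 55.8% an E box.

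The comparison that the labels give is the 2 uterus lines against the 7 ovary lines. In it, 0 of 77 members and 0 of 17446 genes (0%) passed an adjusted p of 0.05 in edgeR's quasi-likelihood test, while 9 members had an unadjusted p under 0.05, a share near the 13.2% of all genes (2308). DESeq2 called 2 of 78 members, Cox4i2 and Cox6a2, both lower in the uterus lines, beside 1315 of 27829 genes fitted. Cox4i2 held 4 counts in each uterus line and passed the filter on low counts only through ovary lines numbered 1 to 7, so its values are a description. The uterus lines held 0.148 and 0.186 CPM of it and the ovary lines numbered 8 and 9 held 0.157 and 0.96 CPM, against 3.04 to 4.57 CPM in the ovary lines numbered 1 to 7. The low values were thus shared by both organs. Cox6a2 and Ndufs7 had the smallest p of the other members with lower values (-3.62 ± 1.47 and -2.58 ± 1.08), and within libraries 8 to 11 both turned to 0.41 and 0.05. Cox4i2 was not tested within these 4 libraries.

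In the other direction, Cox6a1 reached 146 CPM in the F319 uterus line and 158 CPM in the F333 uterus line, above all 7 ovary lines (62.5 to 131 CPM), with a log2 fold change of 0.65 ± 0.27 (edgeR adjusted p = 0.359). Cox8a was at 128 and 104 CPM, also above all ovary lines (60.3 to 94.0 CPM; 0.38 ± 0.23, edgeR adjusted p = 0.386). These were the 2 of 77 members that lay above all ovary lines, beside 5.04% of all genes. Cox6b2 was at 1.85 and 0.186 CPM and spanned the ovary lines (0.24 ± 0.82). Within libraries 8 to 11 the log2 differences of these 3 were 0.41, 0.39, and 1.11. The mean log2 mitochondrial share was lower by a factor of 1.61 in the uterus lines (exact two-sided permutation p = 0.444, adjusted p = 0.667) and the nuclear level by 1.96 (p = 0.333, adjusted p = 0.667, also exact). The mitochondrial to nuclear ratio was higher by a factor of 1.17 (exact permutation p = 0.611). The smallest p that 2 against 7 lines allow in this test is 0.0556.

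Within libraries 8 to 11, the sign of both shares turned. The uterus lines had 0.832% and 1.02% of counts on mitochondrial genes, above the 0.67% and 0.538% of F339 ROV and F318 LOV. All 13 mitochondrial genes and 22 of 58 nuclear genes tested were higher in both uterus lines than in both ovary lines, without overlap, as were 12.3% of 15566 genes, and the median log2 difference of the mitochondrial genes was 0.65. No member passed the adjusted threshold (edgeR, 0 of 15566 genes, 522 at an unadjusted p under 0.05), and the exact permutation test of 2 against 2 lines cannot go below 0.333. The log2 ratio was higher by 0.49 in the uterus lines (exact permutation p = 0.333). The muscle fiber share was 0.694% and 1.28% in the uterus lines and 1.04% and 0.159% in the ovary lines. Like the mitochondrial share, it was lowest in F318 LOV. The 3 muscle forms were all fitted higher in the uterus lines (median log2 difference 1.3), with ranges that overlapped, a description with no test. What part muscle RNA had here was not tested. The 4 lines come from 4 mice, so organ and mouse cannot be told apart here.

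Other genes of the pathway, outside the symbol rule, were counted in the same fit, where 29.9% of all genes were lower and 28.6% higher, or 13.5% and 5.45% with the mouse as a block. Of 18 nuclear ATP synthase genes, 17 were lower in libraries 8 to 11 and 1 was higher (13 and 1 with the block). Atp5e, a subunit of the central stalk, had 275 to 608 CPM in libraries 1 to 7 against 67 to 95.9 CPM (-2.79 ± 0.33, edgeR adjusted p = 7.22e-05). Atpif1, the inhibitor of ATP hydrolysis by the enzyme, went the other way, with 10.6 to 21.4 CPM against 38.1 to 63.2 CPM (1.42 ± 0.18, edgeR adjusted p = 0.000104). Of 42 assembly factors, 29 were lower and 2 higher (10 and 0 with the block). Uqcc3 and Coa4 were lower by -2.46 and -2.45, and Cox20, which passed the filter on low counts through libraries 1 to 7, had 1.14 to 2.2 CPM against 0.175 to 0.65 CPM. The copper chaperone Sco1 and the complex I factor Ndufaf2 were higher (1.17 ± 0.29 and 0.62 ± 0.21), calls that the block removed (edgeR adjusted p = 0.0833 and 0.254).

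Of the 18 genes that copy and maintain mitochondrial DNA or transcribe it and process its RNA, 3 were lower and 3 higher, both shares below those of all genes, with a median of -0.23, and 0 were called with the block (edgeR adjusted p of 0.102 to 0.318 for the 6). The RNA polymerase Polrmt, its partner Tfb2m, and the elongation factor Tefm were lower (-0.90, -1.25, and -1.12), and the poly(A) polymerase Mtpap, the nuclease Pnpt1, and the terminator Mterf1a were higher (0.82, 0.99, and 1.36). Tfam, which packs the mitochondrial genome, had 37 to 64 CPM against 47.4 to 57.6 CPM (-0.23 ± 0.21, edgeR adjusted p = 0.356). Its values in libraries 8 to 11 lay inside the range of the others.

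Of 11 transcription factors and coactivators of these genes, 5 were lower and 4 higher, or 4 and 0 with the block. Both lower counts include Esrrb, which passed the filter on low counts through libraries 1 to 7 only. Among the estrogen-related receptors, Esrra had 90.7 to 328 CPM in libraries 1 to 7 against 26.2 to 53.1 CPM (-2.74 ± 0.48), while Esrrb had 3.29 to 15.9 against 0 to 0.279 CPM and Esrrg 5.69 to 20.9 against 0.0873 to 2.04 CPM, near the floor in libraries 8 to 11. The coactivators Ppargc1b and Ppargc1a were lower as well (-2.89 ± 0.77 and -2.57 ± 0.64), Ppargc1b not with the block (edgeR adjusted p = 0.268). Ppargc1a lay between 17.3 and 41.5 CPM in the former and between 1.09 and 16.3 CPM in the latter libraries. Hif1a, the oxygen-regulated factor, was higher (2.36 ± 0.46), as were the ETS factor subunits Gabpb1 and Gabpa (1.44 ± 0.29 and 0.77 ± 0.17) and the coactivator Pprc1 (0.89 ± 0.35), with edgeR adjusted p of 0.0711 to 0.354 for these 4 under the block. Nrf1 itself had 19.8 to 41 CPM against 44.4 to 55.4 CPM without overlap, but 0.25 ± 0.18 with TMM (edgeR adjusted p = 0.251).

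Carriers and enzymes that feed or drain the chain also come in muscle and general forms. Slc25a4, the adenine nucleotide carrier of muscle and heart, had 1954 to 4554 CPM in libraries 1 to 7 against 519.8 to 869 CPM (-2.65 ± 0.37, edgeR adjusted p = 0.000161). Its paralog Slc25a5 had 49.4 to 136 CPM against 256 to 357 CPM (1.43 ± 0.23, edgeR adjusted p = 0.000377), so the pair moved apart without overlap. Ckmt2, the mitochondrial creatine kinase of muscle, had 241 to 1842 CPM against 6.90 to 111 CPM (-4.71 ± 1.01). Cytochrome c itself, Cycs, had 12.5 to 36.7 CPM against 7.29 to 12.9 CPM (-1.47 ± 0.37), with ranges that met and no call with the block (edgeR adjusted p = 0.143). Of the 11 genes tested in this list, 9 were lower and 1 higher, or 4 and 1 with the block.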

How the data were processed

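Reads were mapped by the authors to GRCm38 (mm10) using STAR, duplicates were taken out with SAMtools RmDup, and the deposited counts per gene from featureCounts carry no normalization. Tool versions and the strand setting were not given in the sources used here. The library kit marks strand. The counts of 28284 genes were whole numbers, no pair of lines had identical columns, and columns were matched to lines by the sample titles. Library numbers came from the sample descriptions.

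The members and the lists of other genes were chosen with earlier results of these data known, as was the boundary after library number 7. CPM is the count per 1000000 counts on genes. Levels of different genes were compared per kb of the union of exons in GENCODE M21 on GRCm38. Sequence shared between a mitochondrial gene and another transcript was counted in windows of 75 bases, and promoters came from RefSeq.

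Comparisons were fitted on all genes with edgeR 4.0.16 (R 4.3.3), using TMM, filterByExpr, the quasi-likelihood test, and Benjamini-Hochberg adjustment, with a threshold of 0.05. Fold changes are from this fit. The splenic and peritoneal tumor lines, 1 library each, entered the comparison by library number only. Shares and the ratio were tested by exact two-sided permutation of the log2 values over all assignments of lines. The fit was tested on simulated counts. DESeq2 1.42.0, scaling by library totals, no filter, each line left out, means per mouse, and other denominators were alternatives, of which library totals and the mitochondrial genes outside the copied stretch were added after seeing the data, as was the mouse as a replicate block. The block pairs lines by the mouse in the sample titles. The deviations of 2 lines of a mouse from the mean of their set of libraries correlated across genes with r of 0.225 (F318), -0.0666 (F319), -0.521 (F326), and 0.298 (F364). Other tools were Python 3.11.15, numpy 2.4.6, and pandas 2.3.3. Genes named singly are all mitochondrial members, complex IV genes with a sister form, the extremes per complex, core subunits, complex II, the members with the largest called change (up to 10 per direction) or, with none called, the 3 smallest p per direction, and up to 3 genes per direction of each further list. Of the members this rule names, 1 is not reported here. Tfam, Nrf1, Cycs, Ppargc1a, Esrra, Gabpa, and the marker genes were named after their values were seen.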

Additional observations from a re-analysis of the deposited data

Results flagged for a closer look

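Among 126 sets of values from the lines of a group, 5 had a line whose distance to its nearest neighbor took up most of the range, and chance marks about 1 in 20 such sets. Cox7a1 was at 35.0 CPM in the F333 uterus line against 4.86 CPM or less in the other libraries numbered 8 to 11. Its share of muscle fiber counts was 1.28%, beside 1.04% in F339 ROV, which had 4.86 CPM of Cox7a1. Tnnt2, a cardiac troponin, reached 143 CPM in the F333 uterus line, its highest level in any line, while the cardiac markers Myh6, Nppa, Tnni3, and Myl7 were at 2.26 CPM or less in libraries 8 to 11. Cox6a1 was at 104 CPM in F319 ROV against 74.6 CPM or less in the other libraries numbered 1 to 7. Cox4i2 was at 0.96 CPM in F318 LOV against 0.186 CPM or less in the other libraries numbered 8 to 11, from 22 counts. Cox6b2 was at 1.71 CPM in F318 ROV against 0.851 CPM or less in the other ovary lines. Cox7a2l was at 209 CPM in the F326 splenic tumor line against 128 CPM or less in the other libraries numbered 1 to 7.

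Outside the members, the 7 annotated genes of the chromosome 1 copy of mitochondrial sequence held a median of 645 CPM over the lines, above the level that 3 counts correspond to in every line.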

How the results depend on the processing

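Of 74 members tested between libraries 8 to 11 and 1 to 7 without the muscle forms, 54 kept their direction and their side of the threshold under all 17 alternatives, and 20 did not. The mouse of origin as a replicate block, an alternative added after seeing the data, left 3028 genes called and 53 of 73 members without the muscle forms and Cox4i2, against 70, and Cox7a2l turned to 0.10. Only the pairs of F318 and F319 cross the boundary in it. Between organs, where only F319 gave both, the block called 0 genes and 0 members. The numbers of the replicates follow the order of accession and pair no lines. Cox7a2l turned to 0.06 with library totals and Cox8a to -0.08 in the ovary lines alone. With each line left out, 69 to 70 of the 73 members and 8526 to 9311 genes were called, the log2 differences were -1.84 to -1.51 for the mitochondrial share and -1.80 to -1.60 for the nuclear level, and that of the ratio ran from -0.25 to 0.05, with a turn of sign without F364 ROV, F364 LOV, or F318 LOV. In the ovary lines alone, the share (-1.83) and the level (-1.63) had an exact p of 0.0952, the smallest that 2 against 5 lines allow. The ratio turned to 0.04 from summed counts and to 0.05 from the 5 mitochondrial genes outside the copied stretch.

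Between uterus and ovary, the share and the level turned to 0.62 and 0.20 within libraries 8 to 11, as did Cox6a2 (0.41) and Ndufs7 (0.05), and Cox6b2 turned to -1.99 without the F319 uterus line and stood at 1.08 without the F333 uterus line. Left-out lines gave -0.93 to -0.52 for the share, -1.16 to -0.80 for the level, 0.02 to 0.44 for the ratio, 0 to 1 genes, the 1 without the F333 uterus line, and 0 members. DESeq2 called 1315 of 27829 genes and 2 of 78 members, and no filter on low counts gave 2 genes, against 0. Causes were not tested. Each line is a single library, 2 uterus lines limit every organ test, and genes under about 0.2 CPM rest on few counts.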
